A study of Mus musculus with 2 samples.

Results

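Adhesion between splenic macrophages and erythroblasts was examined through 7 genes, Vcam1, Itga4, Itgb1, Itgav, Icam4, Maea and Dnase2a. They were taken by gene symbol and make up 7 of the 26124 genes in the deposited tables. All 7 were found in both libraries. The measurements were unique molecular identifier (UMI) counts from droplet single-cell RNA sequencing of mouse spleen cells, taken after red cell lysis and enrichment on magnetic beads carrying anti-F4/80. There were 2 libraries with 1 mouse per condition. The sickle cell disease (SCD) library came from a Berkeley SCD mouse, with no mouse α-globin (Hba−/−) or β-globin (Hbb−/−) and homozygous for the human transgene Tg(HBA-HBBs)41Paz. The library labelled wild-type came from a littermate control that carried the same Hba deletion and the same transgene, though with 1 Hbb allele (Hbb+/−) and with Tg(HBA-HBBs)41Paz in hemizygous form. The control mouse therefore also lacked mouse α-globin genes and carried human globin genes. Both mice were 12 to 16 weeks old, untreated and of a mixed genetic background.

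In an erythroblastic island, a central macrophage holds maturing erythroblasts on its surface, and the spleen hosts such islands when red cell production is under stress. VCAM-1 on the macrophage binds the integrin α4β1 (Itga4 and Itgb1) on the erythroblast, and integrin αv (Itgav) on the macrophage binds ICAM-4 (Icam4) on the erythroblast. MAEA, also called erythroblast macrophage protein, has been described on both sides and is a subunit of the CTLH ubiquitin ligase. DNase II (Dnase2a) lies in macrophage lysosomes and digests the DNA of the nuclei that erythroblasts expel. Red pulp macrophages (RPM) clear old red cells and recycle their iron.

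In GENCODE M21 on GRCm38, Vcam1 lies on chromosome 3, 116109949 to 116129688, minus strand, and Dnase2a on chromosome 8, 84908560 to 84922915, plus strand. Itga4 lies on chromosome 2, 79255426 to 79333123, plus strand, Itgb1 on chromosome 8, 128685654 to 128733200, plus strand and Itgav on chromosome 2, 83724397 to 83806916, plus strand. Icam4 lies on chromosome 9, 21029373 to 21030595, plus strand, and Maea on chromosome 5, 33335509 to 33373296, plus strand. The bases just upstream of 3 of the genes are shown because these genes were among those at least 2-fold apart between the macrophage and the erythroid classes in both libraries, Itga4 and Icam4 in one direction and Itgav in the other. The sequences are from RefSeq on GRCm38.p6, lie on the plus strand and end at the base before the GENCODE start of the gene. They are chr2:79255176-79255425 for Itga4, chr2:83724147-83724396 for Itgav and chr9:21029182-21029372 for Icam4. Capitals mark matches on either strand to a CACCC-type motif bound by Klf1 and other Krüppel-like factors (CCNCNCCC, which GC boxes also match) or to a PU.1 motif (GAGGAAG).
Itga4: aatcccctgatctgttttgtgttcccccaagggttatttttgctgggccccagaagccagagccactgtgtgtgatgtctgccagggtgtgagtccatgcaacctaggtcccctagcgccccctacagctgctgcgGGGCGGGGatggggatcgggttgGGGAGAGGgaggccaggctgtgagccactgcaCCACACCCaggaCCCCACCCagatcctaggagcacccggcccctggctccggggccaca
Itgav: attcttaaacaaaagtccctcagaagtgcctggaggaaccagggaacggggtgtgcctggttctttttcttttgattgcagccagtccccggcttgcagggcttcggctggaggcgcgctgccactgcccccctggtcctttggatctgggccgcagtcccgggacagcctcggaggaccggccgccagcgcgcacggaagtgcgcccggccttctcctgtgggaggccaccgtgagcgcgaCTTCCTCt
Icam4: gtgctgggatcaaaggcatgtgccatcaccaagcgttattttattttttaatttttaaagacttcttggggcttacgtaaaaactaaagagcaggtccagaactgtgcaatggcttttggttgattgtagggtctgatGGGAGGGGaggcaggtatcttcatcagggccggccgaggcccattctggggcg
The Itga4 window held 4 CACCC-type matches, the Icam4 window 1, and the Itgav window 1 PU.1 match. A CACCC-type match occurred in 45.9% of the 32851 RefSeq promoters over a window of 250 bases and in 34.4% over 191 bases. A PU.1 match occurred in 10.6% over 250 bases. None of the 3 windows held a GATA motif (AGATAA or TGATAA or AGATAG or TGATAG), found in 26.5% of promoters over 250 bases. A match describes the letters of the window only.

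The library labelled wild-type held 24144 barcodes and 145953464 UMIs, and the SCD-labelled library held 15442 and 73986356. After filtering, 19418 and 12279 cells were kept, with medians of 4116 and 4571 UMIs. The libraries shared 107 barcodes, 65 of them among kept cells. The mouse β-globin gene went against the labels. In erythroid-like cells, Hbb-bs stood at 124 CPM (UMIs of the gene per 1000000 UMIs summed over the cells of a class) in the wild-type-labelled library, whose mouse carried a working Hbb allele. It stood at 42562 CPM in the SCD-labelled library, whose mouse should have carried none. The mouse α-globin gene Hba-a1 stood at 22031 and 26092 CPM there, although the labels give both mice as Hba−/−. Each library is therefore named below by its label only, as the library labelled wild-type or the library labelled SCD (wild-type-labelled and SCD-labelled), and every direction between libraries rests on those labels. Cells were clustered with the 7 members, the listed genes, hemoglobin genes and sex-linked genes left out. Classes were named from marker genes, none of them in these groups. The 10 leading genes of a cluster (those most raised in it) could overrule its name and were drawn from all genes. Icam4, Fn1, Gas6 and hemoglobin genes were among them in some clusters.

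RPM-like cells numbered 4738 and 1641 in the libraries labelled wild-type and SCD. Clusters that held macrophage and erythroid transcripts together, called EBI-like for erythroblastic island, had 4833 and 890 cells. Erythroid-like cells numbered 2918 and 240. These made up 24.4%, 24.9% and 15.03% of kept cells in the wild-type-labelled library and 13.4%, 7.25% and 1.95% in the SCD-labelled library, so each class was the smaller share in the SCD-labelled library, after an enrichment on F4/80 that can set such shares. Macrophage transcripts were not confined to the macrophage classes. The 10 RPM markers, among them Cd5l, C1qa and Slc40a1, summed to 32441 CPM in RPM-like, 25560 in EBI-like and 11207 in erythroid-like cells of the wild-type-labelled library. The sums in the SCD-labelled library were 26781, 18611 and 4849 CPM. A cluster of B lymphocyte-like cells (530 and 1724 cells), a type that should lack these markers, still held 4624 and 2457 CPM of them. Its values are given below as the B reference, the level that RNA free in the droplets can reach. All levels are CPM, and brackets hold 95% exact Poisson intervals. Intervals cover counting error only, not the spread between mice, which 1 mouse per condition cannot give, so no p-value is reported.

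**Figure D1:**
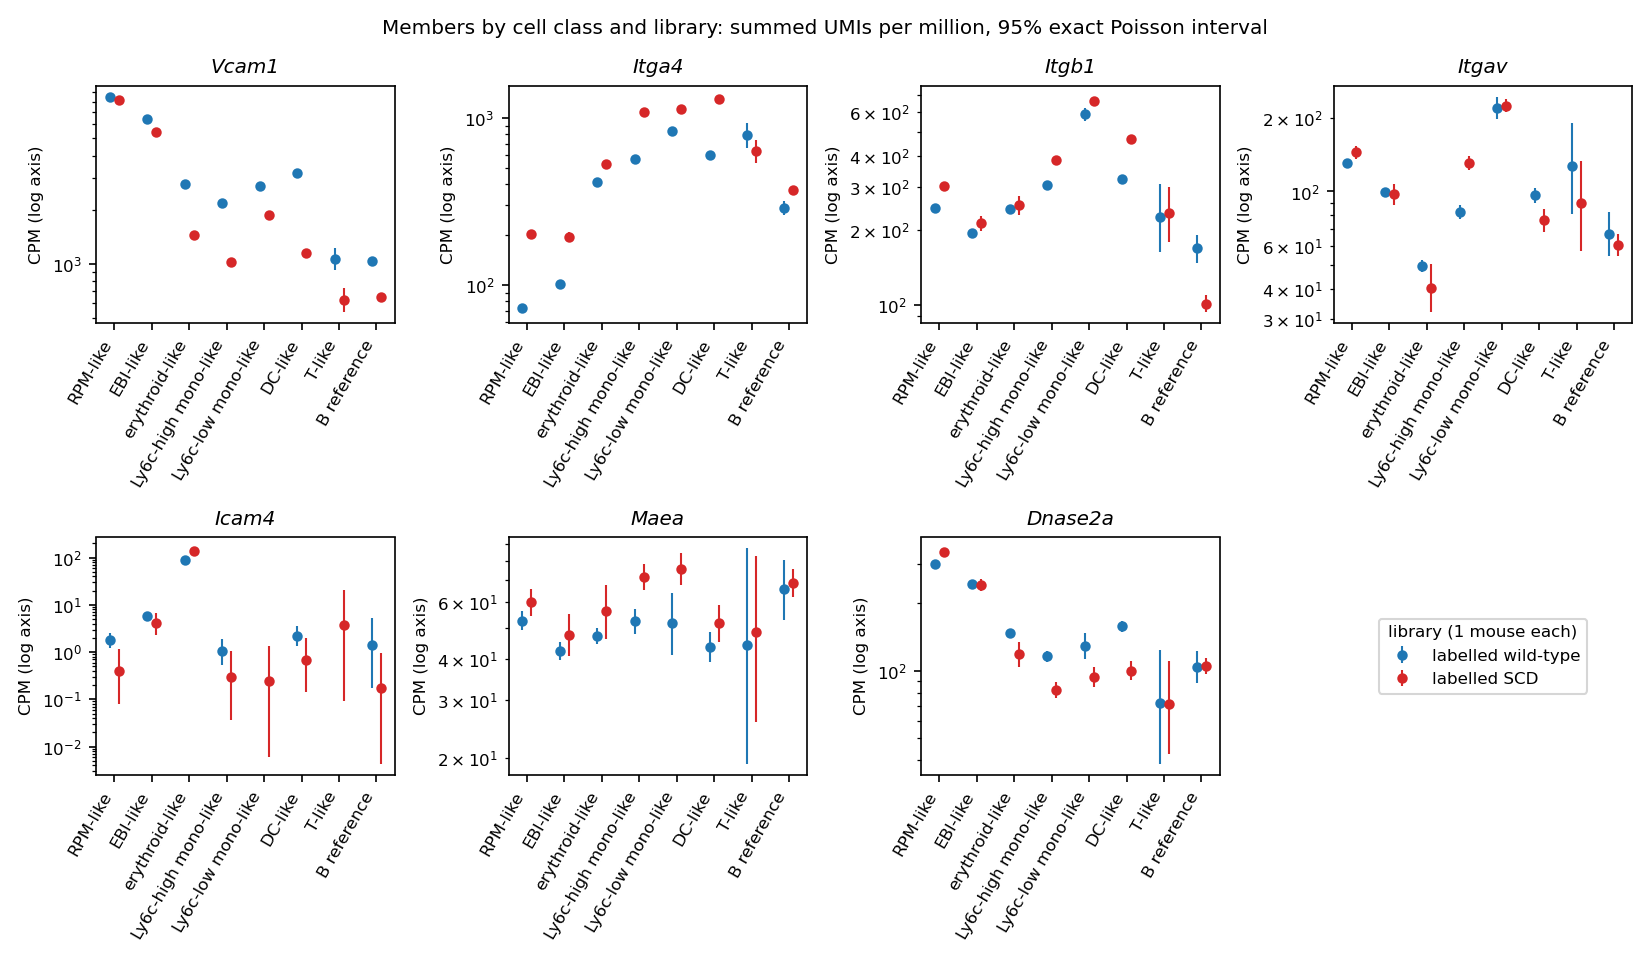
Level of each of the 7 genes (CPM, log axis) in the macrophage, erythroid, monocyte, DC and T lymphocyte-like classes and in the B reference cluster (x axis), blue for the library labelled wild-type and red for the library labelled SCD. Points are sums over all cells of a class and bars are 95% exact Poisson intervals, and Icam4 is not drawn where it had 0 UMIs. Vcam1 is highest in RPM-like cells and Icam4 in erythroid-like cells in both libraries.

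Vcam1, the macrophage ligand of α4β1, was highest in RPM-like cells, intermediate in EBI-like cells and lower in erythroid-like cells. Vcam1 in the wild-type-labelled library was at 8467 (8424 to 8511) CPM in RPM-like, 6366 (6333 to 6399) in EBI-like and 2792 (2772 to 2813) in erythroid-like cells, against 1037 (984 to 1092) in the B reference. The values in the SCD-labelled library were 8163 (8099 to 8227), 5389 (5316 to 5462) and 1454 (1401 to 1508) CPM, against 656 (635 to 677). The intervals of the 3 classes did not overlap in either library. Monocyte-like and DC-like cells held 2181 to 3181 and 1018 to 1868 CPM in the libraries labelled wild-type and SCD, so that erythroid-like cells were not set apart from other leukocytes by their Vcam1 level. Vcam1 was so abundant that 99.6% (99.3 to 99.8%) of RPM-like cells of the wild-type-labelled library had a UMI after thinning each cell to 1000 UMIs (exact binomial interval), but 55.1% (50.8 to 59.4%) of B reference cells had one too.

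Dnase2a followed the same order as Vcam1 over a smaller range. It stood at 299 (291 to 308), 243 (237 to 250.01) and 148 (143 to 153) CPM in RPM-like, EBI-like and erythroid-like cells of the wild-type-labelled library. Its levels in the SCD-labelled library were 339 (326 to 352), 242 (227 to 258) and 118 (104 to 135) CPM. The B reference held 104 and 105 (96.8 to 114) CPM, and the erythroid-like interval of the SCD-labelled library overlapped it. Summed RPM markers of the B reference stood at 4624 and 2457 CPM in the libraries labelled wild-type and SCD, while its Dnase2a hardly differed. The B reference is therefore not taken as a measure of free RNA for Dnase2a.

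Itgav, the macrophage partner of ICAM-4, was also higher in RPM-like than in erythroid-like cells. For the wild-type-labelled library, levels were 131 (125 to 136), 99.5 (95.4 to 104) and 49.5 (46.8 to 52.3) CPM in RPM-like, EBI-like and erythroid-like cells. The corresponding levels in the SCD-labelled library were 145 (136 to 153), 97.5 (87.9 to 108) and 40.3 (31.9 to 50.2) CPM. The erythroid-like level lay below the B reference (67.1 and 60.5 CPM). It joined a cluster at 17.1 and 16.4 CPM with another at 75.5 and 85.0 CPM, both described below. The B reference is therefore not taken as a measure of free RNA for Itgav. RPM-like cells were not the highest of all classes for Itgav, since Ly6c-low monocyte-like cells reached 221 (199 to 244) and 225 (211 to 240.0) CPM.

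Itga4, the α chain of the VCAM-1 receptor, ran the other way. Erythroid-like cells of the wild-type-labelled library held 412 (404 to 420.0) CPM, EBI-like cells 102 (97.5 to 106) and RPM-like cells 72.3 (68.3 to 76.5). For the SCD-labelled library, levels were 531 (499 to 564), 194 (181 to 208) and 203 (193 to 213) CPM in the same order, and the intervals of the RPM-like and EBI-like classes there overlapped. RPM-like and EBI-like levels lay below the B reference of 288 and 372 CPM, but lymphocytes express α4 integrin themselves, so this reference is not a measure of free RNA for Itga4. The highest levels were outside the erythroid cells, at 839 (795 to 883) CPM in Ly6c-low monocyte-like cells of the wild-type-labelled library and 1308 (1274 to 1343) CPM in dendritic cell (DC)-like cells of the SCD-labelled library.

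Itgb1, the β1 chain that pairs with α4 and other α chains, differed little between the macrophage and the erythroid classes. RPM-like, EBI-like and erythroid-like cells held 247 (239 to 254), 196 (190.4 to 202) and 245 (238 to 251) CPM in the wild-type-labelled library and 302 (289.6 to 314), 213 (199 to 228) and 253 (231 to 276) CPM in the SCD-labelled library. RPM-like and erythroid-like intervals overlapped in the wild-type-labelled library and not in the SCD-labelled library. Its highest level, as for Itgav, was in Ly6c-low monocyte-like cells, at 587 (551 to 625) and 666 (642 to 692) CPM.

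Icam4, the erythroblast ligand of αv integrins, was found almost wholly in erythroid-like cells. It stood at 88.2 (84.6 to 92.0) CPM (2214 UMIs) in erythroid-like cells of the wild-type-labelled library and 139 (123 to 157) CPM (273 UMIs) in those of the SCD-labelled library. EBI-like cells held 5.92 (4.96 to 7.01) CPM from 134 UMIs and 4.11 (2.35 to 6.68) CPM from 16 UMIs. RPM-like cells held 1.81 (1.23 to 2.57) CPM from 31 UMIs and 0.393 (0.0810 to 1.15) CPM from 3 UMIs. The B reference held 2 UMIs and 1 UMI, at 1.43 (0.173 to 5.16) and 0.169 (0.00429 to 0.944) CPM. Over the B reference, RPM-like cells were 1.27 (0.323 to 10.9) times as high in the wild-type-labelled library and 2.32 (0.186 to 122) times in the SCD-labelled library, and EBI-like cells 4.15 (1.13 to 34.6) and 24.3 (3.77 to 1018) times. The RPM-like level was thus not told apart from background, while the EBI-like level was above it by a margin that rests on 1 or 2 reference UMIs. Neutrophil-like cells of the wild-type-labelled library held a like level, 5.92 (3.06 to 10.3) CPM from 12 UMIs, so that level was not particular to EBI-like cells.

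Maea had a nearly flat profile across the 3 classes. It stood at 52.5 (49.1 to 56.1), 42.6 (39.9 to 45.4) and 47.3 (44.6 to 50.1) CPM in RPM-like, EBI-like and erythroid-like cells of the wild-type-labelled library. The library labelled SCD gave 59.8 (54.5 to 65.6), 47.6 (41.0 to 54.9) and 56.1 (46.1 to 67.7) CPM. All of these levels were below the B reference of 65.7 and 68.5 CPM, in cells that express Maea themselves. No neighbouring pair in its order of classes had intervals that did not overlap. Classes further apart in that order could differ, as RPM-like and EBI-like intervals of the wild-type-labelled library did not overlap.

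RPM-like cells were then compared directly with erythroid-like cells. Vcam1, Itgav and Dnase2a were at least 2-fold higher in RPM-like cells and Itga4 and Icam4 at least 2-fold lower, in both libraries. Among all 10802 genes with at least 100 UMIs over the cells compared, 23.0% were at least 2-fold higher and 18.8% at least 2-fold lower in the wild-type-labelled library, with a median log2 ratio of 0.21. The shares in the SCD-labelled library were 37.6% and 15.4% of 8700 genes, with a median of 0.53. Vcam1 was 3.03-fold higher in RPM-like cells of the wild-type-labelled library, a log2 ratio of 1.60 (1.59 to 1.61), and 5.62-fold higher in the SCD-labelled library, a log2 ratio of 2.49 (2.44 to 2.54) (95% exact conditional binomial intervals). Itgav gave log2 ratios of 1.40 (1.30 to 1.501) and 1.84 (1.51 to 2.19), and Dnase2a 1.01 (0.95 to 1.08) and 1.52 (1.32 to 1.72). All 3 macrophage-side transcripts thus had the larger ratio in the SCD-labelled library, where the erythroid-like cells also held a smaller sum of RPM markers.

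On the erythroid side, Icam4 was 48.7-fold lower in RPM-like cells of the wild-type-labelled library, a log2 ratio of -5.61 (-6.17 to -5.10). RPM-like cells of the SCD-labelled library held 3 UMIs, which gave a log2 ratio of -8.47 (-10.76 to -6.91). Itga4 was 5.70-fold lower in RPM-like cells of the wild-type-labelled library and 2.62-fold lower in those of the SCD-labelled library, log2 ratios of -2.51 (-2.60 to -2.42) and -1.39 (-1.50 to -1.27). The receptor chain therefore separated macrophage from erythroid cells far less than Icam4 did. Itgb1 gave 0.014 (-0.043 to 0.07) and 0.25 (0.11 to 0.40), and Maea 0.15 (0.024 to 0.28) and 0.092 (-0.21 to 0.41). Dnase2a in the wild-type-labelled library lay at the 2-fold limit and ended under it when each cell was weighted equally, at 0.83, and Itgav in the SCD-labelled library ended under it when cells were gated by marker share, at 0.63.

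**Figure D2:**
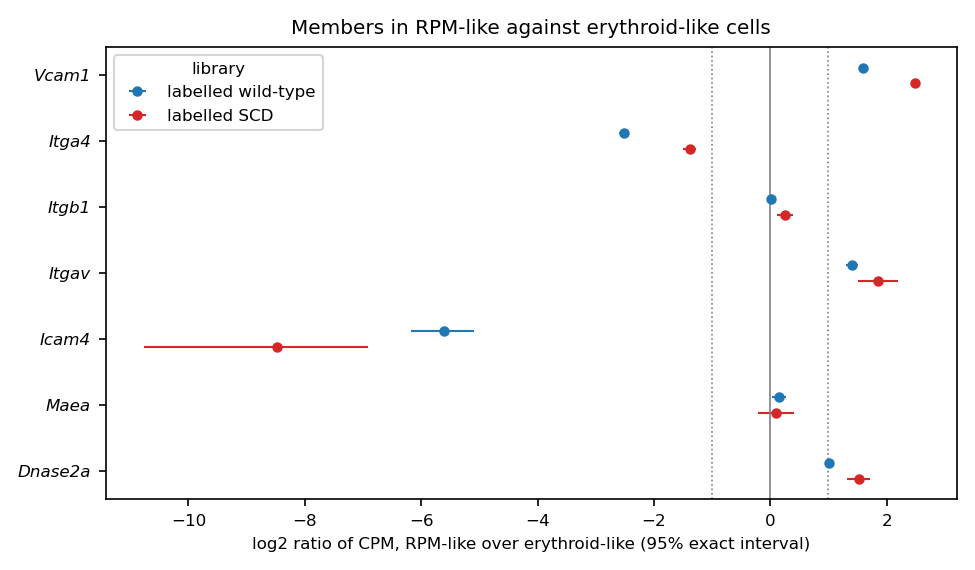
Log2 ratio of CPM in RPM-like over erythroid-like cells (x axis) for each of the 7 genes (y axis), with a blue point for the library labelled wild-type, a red point for the library labelled SCD and bars for 95% exact conditional binomial intervals. Dotted lines mark 2-fold, and in both libraries Vcam1, Itgav and Dnase2a lie above 2-fold and Itga4 and Icam4 lie below it.

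The erythroid-like class was made of a pair of clusters that differed in the same genes. The first, led by Car1 and Tac2 (1422 and 157 cells in the libraries labelled wild-type and SCD), held macrophage markers at a median of 1.14 times their level in the B reference. The second, led by Hemgn and Apol8 (1496 and 83 cells), held them at 3.71 times. Another cluster, led by Xpo7 and Tmcc2 (1247 and 162 cells), held them at 4.33 times and erythroid markers at 43.9 times, and was EBI-like because the limit was 4 times. Computed doublet scores marked 2.53% and 15.3% of the first cluster and 41.3% and 84.3% of the second in the libraries labelled wild-type and SCD. The cut-off for a mark was not the same in each library, as given under the processing. With the marked cells left out, the rest were clustered and named again, with 1815 and 137 erythroid-like cells. The ratio of RPM-like over erythroid-like cells then rose to 2.33 and 3.55 (log2) for Vcam1 and to 2.31 and 2.86 for Itgav. With the Hemgn and Apol8 cluster counted as EBI-like instead, Vcam1 gave 2.98 and 3.27.

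In the Car1 and Tac2 cluster, Vcam1 and Dnase2a stood at or near the B reference and Itgav under it. Vcam1 was at 1076 (1057 to 1096) CPM in the wild-type-labelled library and 845 (795 to 897) in the SCD-labelled library, beside B reference values of 1037 and 656 CPM. It stood at 4168 (4135 to 4202) and 2594 (2475 to 2718) CPM in the Hemgn and Apol8 cluster and at 4573 (4518 to 4628) and 2623 (2495 to 2755) CPM in the Xpo7 and Tmcc2 cluster. Dnase2a was at 104 (98.6 to 111) and 98.6 (82.2 to 117) CPM in the Car1 and Tac2 cluster, against 104 and 105 CPM in the B reference, and Itgav at 17.1 (14.8 to 19.7) and 16.4 (10.2 to 25.1) CPM, under the B reference. Per 100 macrophage-marker UMIs, Vcam1 varied by less than 2-fold across all clusters. It ranged from 19.5 to 28.8 (median 23.1) over 23 clusters of the wild-type-labelled library and from 18.2 to 30.6 (median 27.6) over 18 clusters of the SCD-labelled library, with 22.4 and 26.7 in the B reference. Vcam1 in erythroid-like clusters thus kept about the proportion to other macrophage transcripts that it had in the B reference and in RPM-like clusters. Dnase2a did not keep such a proportion. Per 100 macrophage-marker UMIs it was at 2.10 and 3.39 in the Car1 and Tac2 cluster and 2.25 and 4.27 in the B reference. RPM-like cells held 0.923 and 1.27, and the source of Dnase2a in the other cells was not tested.

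Of these 3 clusters, Icam4 was highest in the Car1 and Tac2 cluster, which held the fewest macrophage transcripts, in both libraries, and Itga4 was highest there in the wild-type-labelled library but not in the SCD-labelled library. Icam4 was at 117 (111 to 124) and 159 (138 to 182) CPM in the Car1 and Tac2 cluster, 64.8 (60.6 to 69.1) and 103 (80.0 to 129.6) in the Hemgn and Apol8 cluster and 19.4 (16.0 to 23.3) and 23.1 (12.6 to 38.8) in the Xpo7 and Tmcc2 cluster, in the libraries labelled wild-type and SCD. Per 1000 erythroid-marker UMIs, the first pair did not differ much, at 5.06 and 6.31 in the Car1 and Tac2 cluster and 4.58 and 6.44 in the Hemgn and Apol8 cluster, while the Xpo7 and Tmcc2 cluster held 0.932 and 0.840. Icam4 was thus low in the Xpo7 and Tmcc2 cluster also in proportion to its erythroid transcripts. Itga4 was lower in each next cluster in the wild-type-labelled library, at 497 (484 to 509.9), 344 (334 to 354) and 149 (139.5 to 159.5) CPM. Itga4 in the SCD-labelled library was at 494 (456 to 534), 601 (544 to 662) and 198 (164 to 237) CPM, so the order of the first pair was not the same. Itgb1 was at 262, 230.5 and 152 CPM in the wild-type-labelled library and 253, 254 and 126 CPM in the SCD-labelled library. Maea was at 43.5, 50.3 and 32.4 CPM and 51.7, 64.5 and 21.5 CPM. Both were lowest in the Xpo7 and Tmcc2 cluster.

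Between the Car1 and Tac2 and the Hemgn and Apol8 clusters, Vcam1 was at least 2-fold lower in the first in both libraries, Itgav was so in the wild-type-labelled library, and no member with at least 100 UMIs was 2-fold higher. Of all genes, 26.6% were 2-fold lower and 5.73% higher in the wild-type-labelled library (median log2 ratio -0.10) and 15.5% and 8.80% in the SCD-labelled library (median 0.16). The log2 ratio of Vcam1 was -1.95 (-1.98 to -1.92) and -1.62 (-1.73 to -1.51), and that of Icam4 0.86 (0.74 to 0.98) and 0.63 (0.23 to 1.04). Against the Xpo7 and Tmcc2 cluster, the Car1 and Tac2 cluster was at least 2-fold higher for Icam4 and Itga4 and at least 2-fold lower for Vcam1 in both libraries, and at least 2-fold lower for Itgav in the wild-type-labelled library. Of all genes, 28.1% were 2-fold higher and 23.7% lower in the wild-type-labelled library (median 0.22) and 46.6% and 16.3% in the SCD-labelled library (median 0.85). Icam4 gave log2 ratios of 2.60 (2.32 to 2.89) and 2.78 (2.001 to 3.68), and Itga4 1.73 (1.63 to 1.84) and 1.32 (1.03 to 1.61). Itgb1 also passed 2-fold in the SCD-labelled library, at 1.01 (0.65 to 1.39), where the median of all genes was itself 0.85. In the SCD-labelled library Itgav against both clusters and Maea against the Xpo7 and Tmcc2 cluster had fewer than 100 UMIs and were not counted.

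**Figure D3:**
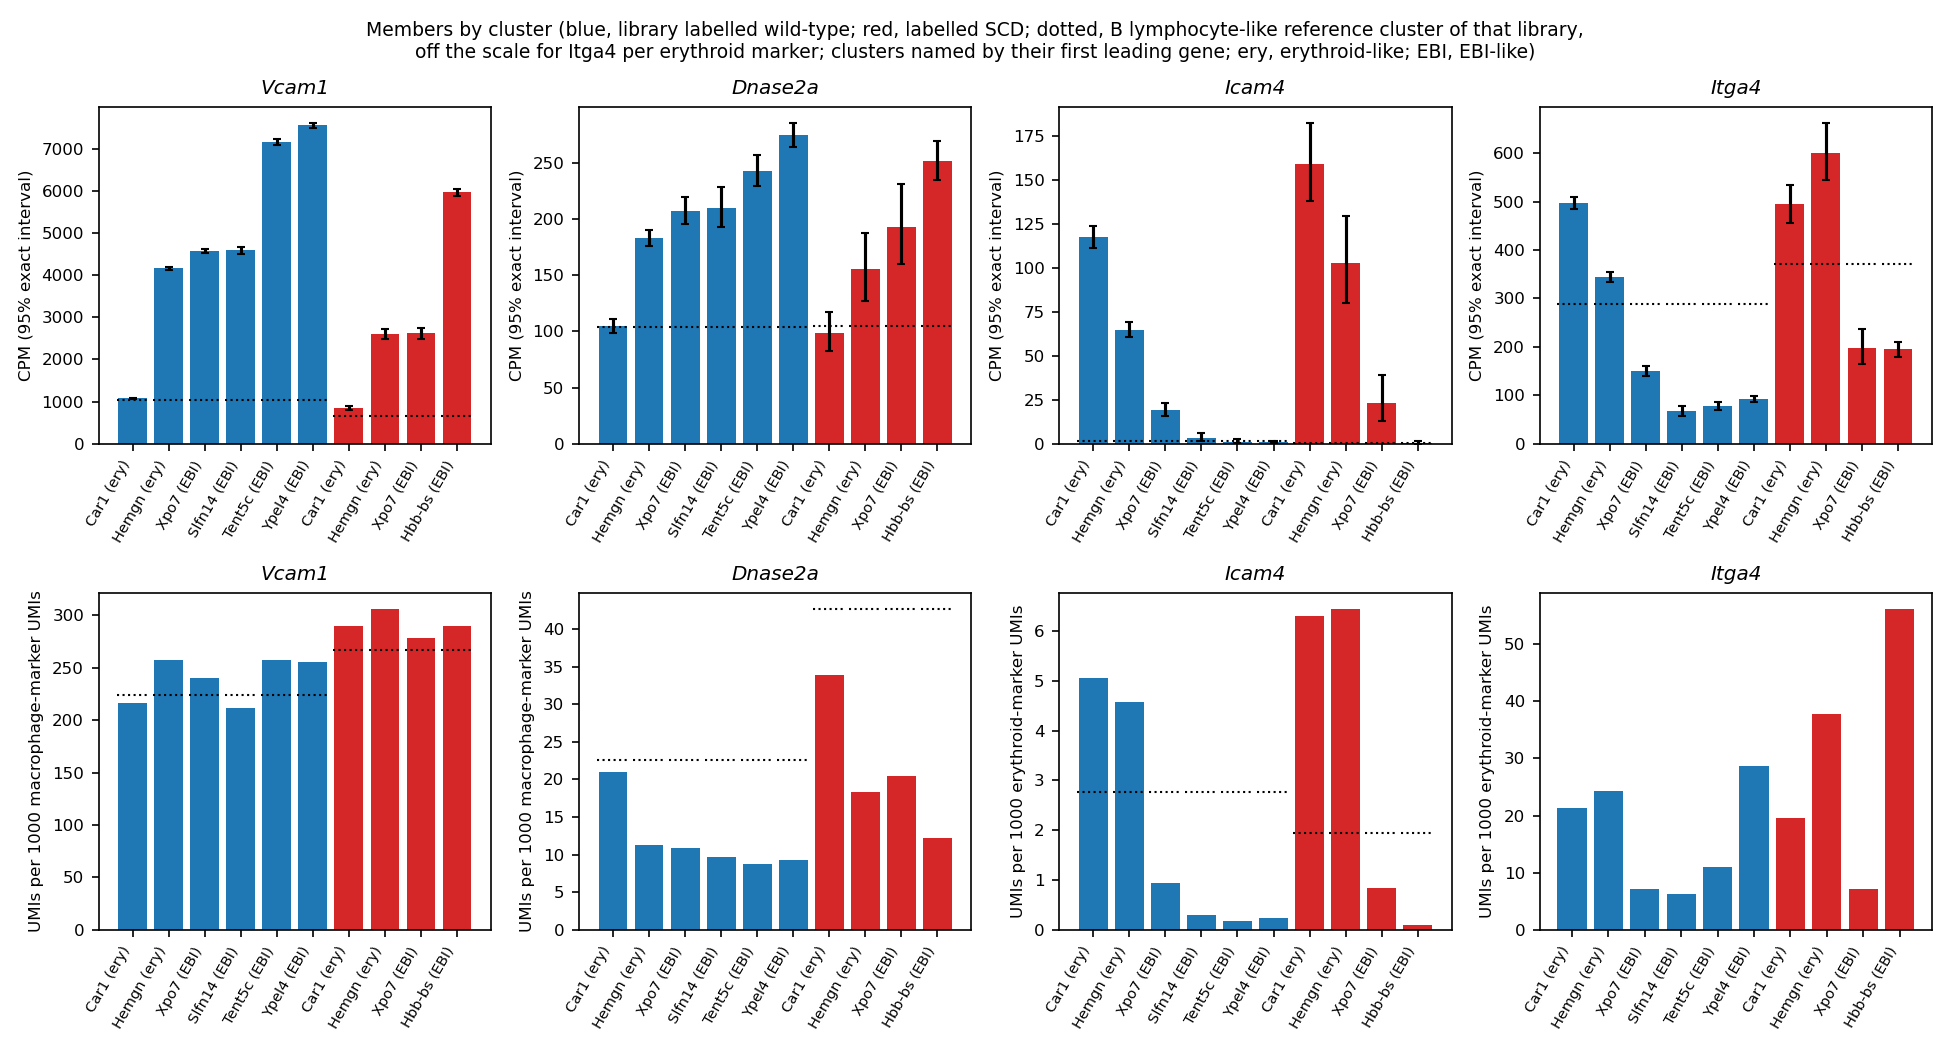
Vcam1, Dnase2a, Icam4 and Itga4 in the erythroid-like and EBI-like clusters of at least 50 cells, named by their first leading gene, with blue bars for the library labelled wild-type and red bars for the library labelled SCD. The upper row gives CPM with 95% exact Poisson intervals and the lower row UMIs per 1000 UMIs of macrophage markers (Vcam1, Dnase2a) or of erythroid markers (Icam4, Itga4), and dotted lines give the B reference, which is off the scale for Itga4 in the lower row. Vcam1 in CPM is near the B reference in the Car1 and Tac2 cluster and is several times higher in the EBI-like clusters, while Icam4 is lower from the Car1 and Tac2 to the Xpo7 and Tmcc2 cluster.

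EBI-like cells, the cells with macrophage and erythroid transcripts together, lay within 2-fold of RPM-like cells for most members, as they did for most genes. Icam4 was the only member at least 2-fold higher in EBI-like than in RPM-like cells of the wild-type-labelled library, with a log2 ratio of 1.71 (1.14 to 2.32), beside 5.65% of 10500 genes that were 2-fold higher and a median of -0.27. No member was 2-fold lower, beside 0.133% of genes. As for the SCD-labelled library, Icam4 had 16 UMIs in EBI-like and 3 in RPM-like cells, a log2 ratio of 3.39 (1.58 to 5.81), too few for the limit of 100 UMIs. None of the other 6 members passed 2-fold there, beside 3.86% of 8756 genes higher and 2.25% lower (median -0.39). The macrophage-side genes were lower in EBI-like cells, with log2 ratios of -0.41 and -0.60 for Vcam1, -0.39 and -0.57 for Itgav and -0.30 and -0.49 for Dnase2a. Itga4 was 0.49 (0.39 to 0.59) in the wild-type-labelled library and -0.064 (-0.19 to 0.062) in the SCD-labelled library.

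Placed on a linear scale from the RPM-like to the erythroid-like CPM, the EBI-like level of the macrophage-side genes lay 37% (Vcam1), 38.4% (Itgav) and 37% (Dnase2a) of the way in the wild-type-labelled library. The library labelled SCD gave 41.4%, 45.3% and 44.1% for the same genes. The 10 macrophage markers gave medians of 33.4% and 39.4%, and the erythroid markers 42.6% and 23.1%. Icam4 lay 4.75% and 2.68% of the way and Itga4 8.63% in the wild-type-labelled library, both nearer the macrophage end than the median erythroid marker. Itga4 in EBI-like cells of the SCD-labelled library lay outside the range. Of all genes, 58% and 61.5% had an EBI-like level between the other levels.

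The erythroid-side transcript of EBI-like cells came mostly from 1 cluster. Icam4 stood at 19.4 (16.0 to 23.3) CPM in the Xpo7 and Tmcc2 cluster of the wild-type-labelled library and at 0.744 to 3.14 CPM in its other EBI-like clusters of at least 50 cells. Of the SCD-labelled library, the Xpo7 and Tmcc2 cluster held 23.1 (12.6 to 38.8) CPM and the cluster led by Hbb-bs and Hbb-bt, which made up 675 of its 890 EBI-like cells, held 0.314 (0.00795 to 1.75) CPM. Thinned to 1000 UMIs, 0.649% (0.438 to 0.926%) of EBI-like cells of the wild-type-labelled library had an Icam4 UMI, against 0.190% (0.00481 to 1.05%) of B reference cells and 9.40% (8.36 to 10.5%) of erythroid-like cells. Without thinning the shares were 2.42%, 0.377% and 45.6%, at median depths of 3065, 2200 and 7669 UMIs. Thinned shares in the SCD-labelled library were 0.680% (0.250 to 1.47%) of EBI-like cells, 13.9% (9.74 to 18.9%) of erythroid-like cells and 0 of 1708 B reference cells, which allows a share of up to 0.176%. Vcam1 and Icam4 were found in the same barcode in 26 of 4621 thinned EBI-like cells of the wild-type-labelled library, 0.563% (0.368 to 0.823%). The library labelled SCD had 4 of 882 such cells, 0.454%. Since Vcam1 alone was in 4324 and 771 of these cells, the joint counts do not show whether the transcripts occurred together more or less often than apart.

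The library labelled SCD was then compared with the wild-type-labelled library within each class. Different clusters held the macrophage classes of each library. RPM-like cells of the wild-type-labelled library were mostly the clusters led by Marco and Vat1 (3509 cells) and by Dock3 and Gm48996 (1190 cells), and those of the SCD-labelled library the cluster led by Rgs1 and Adamdec1 (1603 cells). EBI-like cells were spread over the clusters led by Ypel4 and Slfn14, Xpo7 and Tmcc2, Slfn14 and Fam220a and a cluster led by Tent5c in the wild-type-labelled library, and lay mostly in the cluster led by Hbb-bs and Hbb-bt in the SCD-labelled library. Cluster, mouse and library cannot be told apart in these comparisons.

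Itga4 was the member with the largest ratio in RPM-like cells among those with enough UMIs. It stood at 72.3 CPM in the wild-type-labelled library and 203 CPM in the SCD-labelled library, 2.81-fold higher, a log2 ratio of 1.49 (1.38 to 1.60). By cluster it was 56.7 (51.5 to 62.3) CPM (Marco and Vat1) and 84.1 (78.3 to 90.2) CPM (Dock3 and Gm48996) in the wild-type-labelled library and 204 (194 to 214) CPM (Rgs1 and Adamdec1) in the SCD-labelled library, with no overlap. Thinned to 1000 UMIs, 6.59% (5.84 to 7.40%) and 16.9% (15.04 to 18.9%) of RPM-like cells had an Itga4 UMI, against 17.8% and 49.6% without thinning at median depths of 2159.5 and 4124 UMIs. The B reference gave 25.1% (21.4 to 29.0%) and 29.7% (27.6 to 32.0%) of thinned cells. Itga4 was the 1 member of the 6 with 100 UMIs or more that passed 2-fold, beside 8.92% of 10014 genes (median log2 ratio 0.20), and none was 2-fold lower, beside 4.37%. Monocyte-like and DC-like cells, in which Itga4 is high, were not equally frequent in the libraries, at 2.06% and 7.94% of kept cells for Ly6c-low monocyte-like and 6.45% and 7.24% for DC-like. Cells of unnamed clusters, at 14.8% and 36.2% of kept cells, held 520 and 912 CPM of Itga4. The part of all these cells in the result was not tested. The other members with enough UMIs moved less, with -0.053 (-0.066 to -0.039) for Vcam1, 0.29 (0.22 to 0.36) for Itgb1, 0.15 (0.043 to 0.25) for Itgav, 0.19 (0.023 to 0.35) for Maea and 0.18 (0.11 to 0.25) for Dnase2a.

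In EBI-like cells no member passed 2-fold, beside 5.72% of 9886 genes higher and 6.92% lower (median 0.012). Itga4 was 1.91-fold higher in the SCD-labelled library, a log2 ratio of 0.93 (0.81 to 1.05), just inside the limit, and it ranged from 0.39 to 1.75 under other settings. Vcam1 gave -0.24 (-0.26 to -0.22) and Icam4 -0.52 (-1.37 to 0.23). In erythroid-like cells no member passed 2-fold either, beside 1.51% of 10017 genes higher and 7.0% lower (median -0.063). Vcam1 was lower in the SCD-labelled library, at -0.94 (-0.996 to -0.89), where the summed RPM markers were also lower. Within the Car1 and Tac2 cluster Vcam1 was at 1076 (1057 to 1096) and 845 (795 to 897) CPM and within the Hemgn and Apol8 cluster at 4168 (4135 to 4202) and 2594 (2475 to 2718) CPM, lower in the SCD-labelled library in both but by a smaller factor than over the whole class. Icam4 was higher at 0.66 (0.47 to 0.84), but turned to -0.12 when each library was clustered on its own and to -1.35 when cells were gated by marker share, so no direction is drawn. Itga4 gave 0.37 (0.27 to 0.46), and -0.0078 without the Hemgn and Apol8 cluster. The Car1 and Tac2 cluster made up 1422 of 2918 erythroid-like cells in the wild-type-labelled library and 157 of 240 in the SCD-labelled library. Within that cluster alone Icam4 was at 117 and 159 CPM, and Itga4 at 497 and 494 CPM, and the Itga4 values differed by less than their intervals.

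Across the 8 named classes with at least 50 cells in each library, Vcam1 and Maea each kept 1 direction in all. The share of all genes that did so was not computed, and the classes share the same 2 libraries and their free RNA. The counts of classes are therefore given as a description only. Vcam1 was lower in the SCD-labelled library in 8 of 8 classes, with log2 ratios from -1.46 to -0.053 and intervals below 0 in 8. The ratio was nearest 0 in RPM-like cells, where it turned to 0.015 after subtraction of the B reference, and lowest in DC-like cells. The B reference itself gave -0.66. Maea was higher in 8 of 8 classes, by 0.067 to 0.55, but its interval lay above 0 in 3. In RPM-like cells its log2 ratio of 0.19 lay beside a median of 0.20 over all genes. Itga4 was higher in 7 of 8 classes and passed 2-fold in 2, RPM-like and DC-like cells, the latter at 1.13 (1.07 to 1.18). Neither DC-like cluster passed 2-fold alone. The cluster led by Ccl5 and Hbb-bs (817 and 216 cells) held 511 and 850 CPM. The cluster led by Dkk2 and Gm42602 (435 and 673 cells) held 891 and 1513 CPM. The DC-like ratio therefore also holds a different mix of clusters in each library. The higher Itga4 level was therefore not particular to RPM-like cells.

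**Figure D4:**
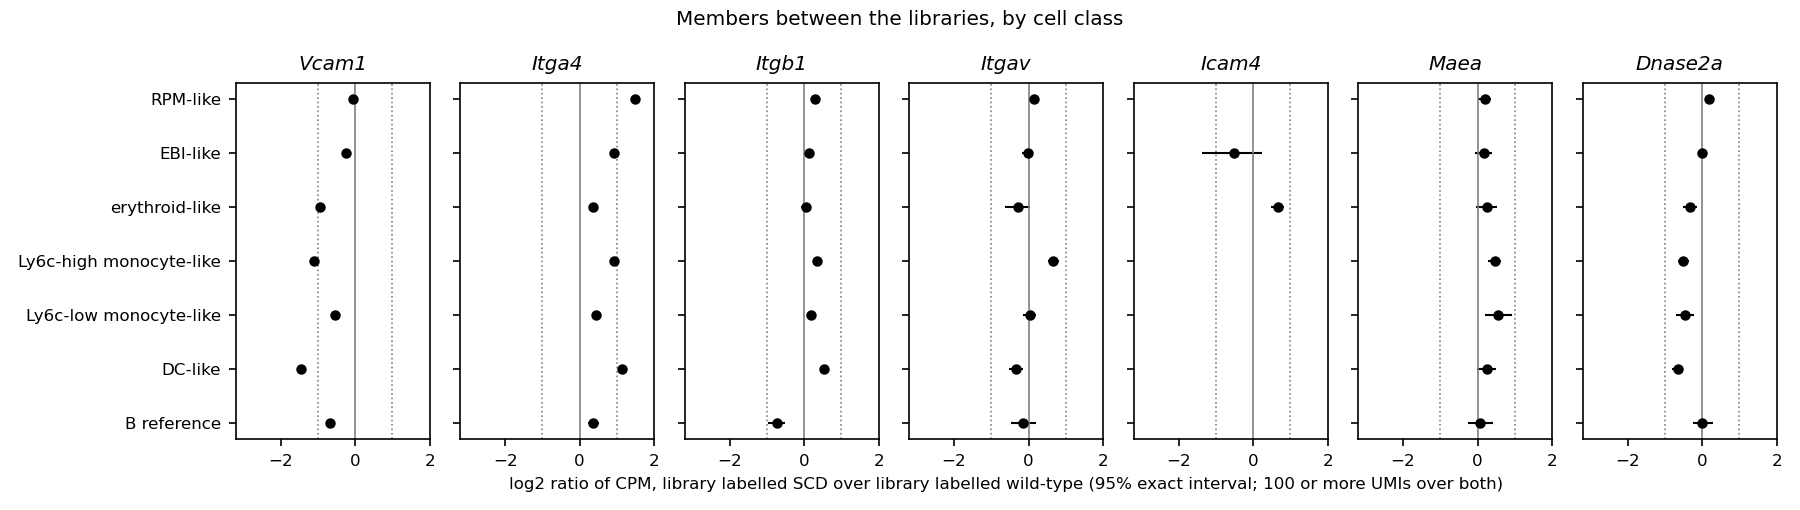
Log2 ratio of CPM in the library labelled SCD over the library labelled wild-type (x axis) for each of the 7 genes, in the 6 macrophage, monocyte, DC and erythroid classes and the B reference (y axis). Points with fewer than 100 UMIs over both libraries are left out, bars are 95% exact conditional binomial intervals and dotted lines mark 2-fold. Itga4 lies beyond 2-fold in RPM-like cells and in DC-like cells taken as a whole class, and Vcam1 lies left of 0 in each class shown.

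The members were set beside 3 lists of related genes, 25 other integrins and integrin ligands, 26 other genes of the island macrophage and the erythroblast, and 11 CTLH complex genes. Of the integrin list, 16 genes had enough UMIs for RPM-like over erythroid-like cells in the wild-type-labelled library, and 7 were 2-fold higher, 5 lower and 4 within 2-fold (median log2 ratio 0.56). Counts in the SCD-labelled library were 7, 2 and 3 of 12 (median 1.36). Of all genes, 23.0% were 2-fold higher and 18.8% lower in the wild-type-labelled library and 37.6% and 15.4% in the SCD-labelled library. In both libraries 5 were higher, among them Itga9, an α chain that also binds VCAM-1, at 1.73 (1.66 to 1.80) and 2.85 (2.62 to 3.09), Itgad, the α chain of another β2 integrin that binds VCAM-1, at 1.62 (1.57 to 1.68) and 2.85 (2.67 to 3.03), and Itgb5, which pairs with αv, at 1.58 (1.51 to 1.66) and 2.48 (2.17 to 2.81). Icam1, a ligand of β2 integrins, and Itgb2, the β2 chain, were the other higher genes, at 1.251 and 2.27, and 1.22 and 1.64. Fn1, fibronectin, was lower at -2.84 and -1.24, as was Itgam, chosen after its values were seen, at -1.67 and -1.08. Fn1 was a leading gene of both Ly6c-high monocyte-like clusters. The part of doublet-scored cells in the ratios of Fn1 and Itgam was not tested. Of the α chains able to bind VCAM-1, Itga9 and Itgad were thus higher in RPM-like cells and Itga4 lower.

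Of the 26 other island genes, 13 of 19 were 2-fold higher in RPM-like cells of the wild-type-labelled library, 3 were lower and the median was 1.20. Of those measured in the SCD-labelled library, 12 of 18 were higher, 3 lower and the median was 2.17. The shares of all genes are those given for the integrin list. Siglec1, the sialic acid receptor CD169 that marks island macrophages, was higher at 1.76 (1.61 to 1.92) and 3.36 (2.22 to 4.82). Mertk, a receptor for dying cells and expelled nuclei, was higher at 1.72 and 3.14, and Gas6, which bridges Mertk to its targets, at 1.52 and 2.77. The growth factor genes Igf1 and Kitl were higher too, at 1.65 and 2.97, and 1.66 and 2.28, as was Palld, an actin-binding protein, at 1.64 and 3.50. The lower genes were Epor, the erythropoietin receptor, at -2.19 (-2.32 to -2.07) and -2.87 (-3.09 to -2.66), Rb1 at -1.62 and -2.20, and Cd47, a do-not-eat-me signal chosen after its values were seen, at -1.05 and -1.001.

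Maea and several of the CTLH genes lay within 2-fold between RPM-like and erythroid-like cells (8 of 11 and 7 of 11, medians -0.39 and -0.011). Of all genes, 23.0% were 2-fold higher and 18.8% lower in the wild-type-labelled library and 37.6% and 15.4% in the SCD-labelled library, and the count of the complex is given as a description beside them. Past 2-fold in both libraries were Ranbp10, at -3.42 (-3.52 to -3.33) and -4.18 (-4.38 to -4.00), Gid8, at -2.70 (-2.80 to -2.59) and -2.59 (-2.76 to -2.41), and Armc8, at 1.07 (1.002 to 1.14) and 1.15 (0.90 to 1.40). EBI-like over RPM-like cells, 4 of the 11 were 2-fold higher in both libraries, beside 5.65% of all genes in the wild-type-labelled and 3.86% in the SCD-labelled library. These were Ranbp10 at 3.74 and 3.41 and, named after their values were seen, the ubiquitin-conjugating enzyme Ube2h at 2.64 and 2.59, Wdr26 at 1.65 and 1.18 and Ypel5 at 1.16 and 1.04. Maea, a RING subunit of this complex, was not among them, at -0.30 (-0.44 to -0.17) and -0.33 (-0.59 to -0.082). In this comparison Itgal, the α chain of LFA-1, was the integrin gene 2-fold higher in both libraries, at 1.38 and 1.13, and Itga2b and Epor were so in the wild-type-labelled library, at 3.13 and 1.26.

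**Figure D5:**
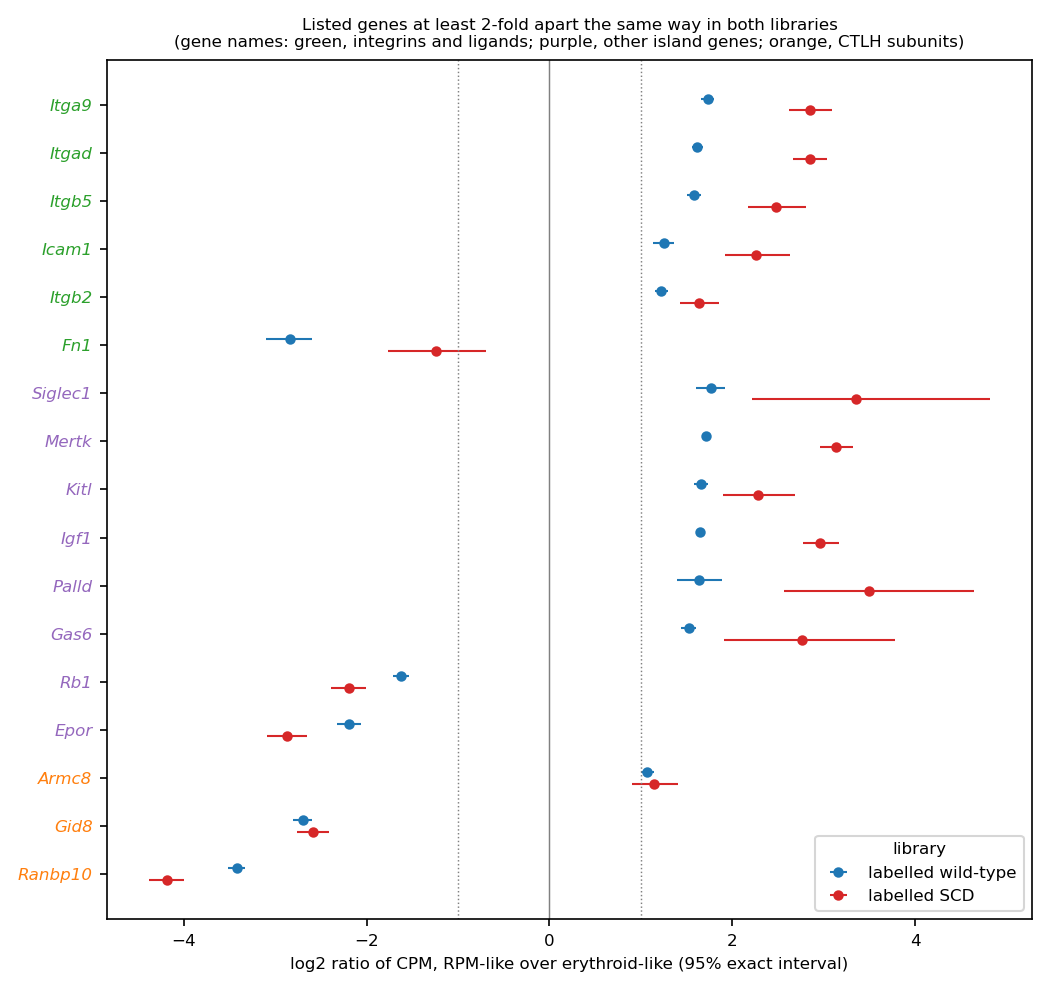
Log2 ratio of CPM in RPM-like over erythroid-like cells (x axis) for the listed genes named by the rule that were at least 2-fold apart in the same direction in both libraries (y axis), with a blue point for the library labelled wild-type and a red point for the library labelled SCD. Bars are 95% exact conditional binomial intervals, dotted lines mark 2-fold, and gene names are green for integrins and ligands, purple for other island genes and orange for CTLH genes. Fn1, Rb1, Epor, Gid8 and Ranbp10 lie left of 0 and the other genes right of it.

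Between libraries, RPM-like cells differed in other integrin genes besides Itga4. Of 13 integrin and ligand genes, 4 were 2-fold higher in the SCD-labelled library, Itga1 at 2.75 (2.49 to 3.02), Itgal at 1.21 (0.97 to 1.46), and, named after their values were seen, Itgam at 1.18 and Itgax at 1.16. Itga5, also chosen after its value was seen, was lower at -1.17. Of 19 other island genes, Gas6 was lower at -2.36 (-2.53 to -2.18), Siglec1 at -1.02 (-1.23 to -0.82) and Timd4, named after its value was seen, at -1.11, while Palld and Cd44, the latter named after its value was seen, were higher at 1.09 and 1.16. None of the 11 CTLH genes passed 2-fold. Of all 10014 genes, 8.92% were 2-fold higher and 4.37% lower, and the counts of the lists are given as a description beside them. Gas6 was itself a leading gene of the Marco and Vat1 cluster that held most RPM-like cells of the wild-type-labelled library. In erythroid-like cells 8 of 19 island genes were 2-fold lower in the SCD-labelled library, beside 7.0% of all genes and the lower summed RPM markers there.

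Over the 41 sums of 1 cluster in 1 library, which share libraries and differ in depth, the genes most like each member were found by Pearson correlation of log2(CPM + 1). For Vcam1 they were Mrc1 (0.997), Slc40a1 (0.997) and Axl (0.994), and for Dnase2a C1qc (0.940), Plpp3 (0.933) and Scamp5 (0.932). For Icam4 they were Cpox (0.961), Ubac1 (0.956) and Mpp2 (0.954), of which Cpox encodes a heme synthesis enzyme. Mrc1, Slc40a1 and C1qc are RPM markers that also named the clusters. For Itga4 they were Mbp (0.932), Arid4a (0.873) and Sipa1l3 (0.867), for Itgb1 Slc26a2 (0.835), Pot1b (0.796) and Tnfrsf1b (0.796), for Itgav Tgfbr1 (0.908), Abi3 (0.894) and Rnf13 (0.870) and for Maea Usf3 (0.835), Zfp748 (0.822) and Tgds (0.822). Likeness was highest for the genes at the macrophage and erythroid ends, Vcam1 and Icam4, and lower for Itgb1 and Maea. Among the members, Vcam1 and Dnase2a had a correlation of 0.93, Itga4 and Itgb1 of 0.56, Vcam1 and Itga4 of -0.68 and Itgav and Icam4 of -0.63. The receptor pair α4 and β1 thus varied together only in part.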

How the data were processed

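Spleen cells of 1 mouse per condition were measured in 2 droplet libraries. The deposited values are raw UMI counts per gene and barcode, which the authors made with Cell Ranger (4.0.0 in their methods, 3.1.0 in the matrix header) on GRCm38.p6. Values for genes, classes and intervals were computed here from those counts. The filter kept barcodes with between 500 and 5000 detected genes, less than 15% of UMIs mitochondrial and less than 30% ribosomal. They were normalized with scran 1.30.0 and clustered jointly with scanpy 1.11.5 (2000 variable genes, 30 principal components, 15 neighbours, Leiden resolution 1). A cluster was named from markers when at least 3 were found in 10% of its cells, and was called RPM-like or EBI-like with macrophage markers at a median of 4 times or more the B lymphocyte-like cluster. Erythroid markers at 2 times or more marked the EBI-like clusters, and erythroid-like clusters lay under the macrophage limit. These limits follow earlier work on these data, and the members and lists were chosen with earlier results of these data known. Clusters that met no rule, or whose 10 leading genes held more markers of another type than of their own, stayed unnamed (2882 and 4444 cells). The second reason kept out the clusters led by Cd7 and Ffar2 (892 and 269 cells) and by Iglc2 and Iglc1 (483 and 306 cells), which held macrophage markers at 4.44 and 4.40 times. Doublets were scored and left in. The automatic threshold marked 1 cell of the wild-type-labelled library, where the top 10% (2039 cells) were used instead, and 1927 of the SCD-labelled library.

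Counts were summed per class and library. Genes with at least 100 UMIs over the cells compared were counted, and 2-fold was the limit for naming a difference. Listed genes were named when they passed 2-fold between RPM-like and erythroid-like cells in both libraries or between libraries in RPM-like cells, up to 8 per list by size, with exceptions stated. Poisson counts were simulated from the pooled RPM-like profile of both libraries (7595 genes). Only genes with at least 100 expected UMIs in the SCD-labelled RPM-like cells were simulated. Genes that reach 100 UMIs only over both libraries were thus not covered. There, 100% of genes changed by a log2 of 2 passed the limit, and 0% of unchanged genes did. Of genes changed by a log2 of 0.32 or -0.32, 0% passed. These counts hold no difference between mice, clusters or free RNA, so they cover counting error only.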

Additional observations from a re-analysis of the deposited data

Results flagged for a closer look

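Hbb-bs, a mouse β-globin gene outside the comparisons above, stood at 42562 CPM in erythroid-like cells of the SCD-labelled library, whose labels give both Hbb alleles as deleted, against 124 CPM in those of the wild-type-labelled library. In the B reference it stood at 547 and 11.4 CPM. The signal was thus above the control level in data no comparison used, and what it means for the labels was not tested.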

How the results depend on the processing

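No paired analysis was possible because each condition had 1 library. The directions of Vcam1, Itgav, Dnase2a, Itga4 and Icam4 between RPM-like and erythroid-like cells were the same under every alternative that gave a value. The log2 ratio of Vcam1 ranged from 1.44 to 2.98 in the wild-type-labelled library and 2.24 to 3.55 in the SCD-labelled library, and that of Itga4 between libraries in RPM-like cells from 1.44 to 1.62. Of 150 recomputed counts of members past 2-fold, 131 stayed within 1.5 times the reported count, 19 moved and none reversed. Single values moved more often, since 163 of 462 recomputed log2 ratios of members fell outside the counting interval of the reported value, with none of those past 2-fold changing sign, and 49 of 52 percentages did, most of them shares of cells thinned to 2000 in place of 1000 UMIs. In EBI-like cells, where no member passed 2-fold between libraries, 1 was higher with at least 200 genes per cell, Leiden resolution 0.5, separate clustering, marker gating, CPM without hemoglobin, mitochondrial and ribosomal genes, subtraction of the B reference, a 1.5-fold limit, or the Xpo7 and Tmcc2 cluster counted as erythroid-like, and 1 was lower with at least 200 genes, Leiden resolution 2, separate clustering or gating. In erythroid-like cells 1 was lower without doublet-scored cells, with library totals as size factors or at 1.5-fold, and 2 with gating or subtraction, while 1 was higher with subtraction or at 1.5-fold. The cause was not tested. The 3 alternatives on shared barcodes and on the border clusters were chosen after seeing the data. Icam4 rests on few UMIs outside erythroid-like cells, and low depth per class limits it most in the SCD-labelled library.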
